A study of Homo sapiens with 4 samples.

Results

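The lysosome is the acidic compartment in which cells break down proteins, glycans and lipids. The 46 genes described here encode its soluble hydrolases and their helpers, its main membrane proteins, the transcription factors TFEB and TFE3, and the subunits of the V-ATPase. They are given by a list of gene symbols, drawn up with earlier results of these data known, and all 46 were found among the 20263 genes of the count table. All 46 also passed the filter on low counts, which left 13667 genes for testing. By role they are 8 proteases, 8 glycan hydrolases, 4 genes of lipid breakdown, 2 other luminal proteins, 7 membrane proteins, 2 transcription factors and 15 V-ATPase genes.

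RNA was sequenced from MDA-MB-231, an established human line of triple-negative breast cancer, after 24 h with Rib_CA (2 libraries) or under the label DMSO, the solvent (2 libraries). The series title calls Rib_CA a ribociclib derivative, and ribociclib inhibits the kinases CDK4 and CDK6. The labels give no dose. Nothing in them says that the libraries of a group came from separate cultures, and each p-value therefore reflects the spread between libraries alone, which may be technical. The series title speaks of p53-dependent apoptosis, and the comparison asks which transcripts differ after treatment.

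The libraries held 38865103 and 37772266 counts in Rib_CA, against 34774542 and 37754168 counts in DMSO. Mitochondrially encoded genes took 5.78 and 3.13% of the counts in the Rib_CA libraries, against 8.68 and 21.7% in the DMSO libraries. A fit without these genes turned the sign of 0 of the 46 fold changes, and its calls among the 46 are given at the end. Any other part of this gap in the results was not tested. The line was checked against its markers: the mesenchymal gene VIM lay between 3587 and 4221 CPM in the 4 libraries, while the oestrogen receptor gene ESR1 was at most 0.663 CPM, the progesterone receptor gene PGR at most 1.76 CPM and the epithelial cadherin gene CDH1 at most 3 counts. Other genes listed as low in this line were present: ERBB2, the HER2 gene, lay between 58.0 and 87.1 CPM, GATA3 between 3.04 and 21.7 CPM and EPCAM between 9.50 and 12.2 CPM. FOXA1, also listed as low, lay at 4.03 and 0.488 CPM in Rib_CA, against 7.35 and 7.29 CPM in DMSO. CPM are counts per 1000000 counts of the library after TMM scaling, which allows for a few very abundant genes. Macrophages are rich in lysosomes, and 8 of their markers summed to 1.39 to 2.35 CPM in Rib_CA and to 1.61 to 2.42 CPM in DMSO, with AIF1 and TYROBP at 0 counts in all 4 libraries. Over all genes tested, edgeR's quasi-likelihood test with Benjamini-Hochberg adjustment called 2.01% higher and 5.11% lower in Rib_CA at an adjusted p under 0.05, 7.13% in all.

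Hydrolases reach the lysosome through a mannose 6-phosphate tag and work at the low pH that the V-ATPase, a rotary proton pump, maintains. TFEB and TFE3 are related transcription factors that mTORC1, a growth-control kinase on the lysosomal surface, keeps in the cytoplasm when nutrients are plentiful. In the nucleus they bind a short palindromic element in the promoters of many lysosomal genes, with CACGTG at its core. The letters CACGTG and the longer TCACGTG were searched on both strands in the RefSeq promoter windows (GRCh38.p14, 250 bases before to 50 after the first listed start), with overlapping matches counted once. Windows were matched for 34 of the 46 genes, and CTSB, NAGLU, HEXA, SGSH, PSAP, ASAH1, LAMP2, ATP6V0E1, ATP6V1H, ATP6V1B2, ATP6V1A and ATP6V1C1 were not matched. TCACGTG occurred in 9 of the 34 windows (26.5%), against 3.82% of all 27305 promoter windows. The 9 belong to LAMP1, MCOLN1, CTSA, CTSD, GAA, NEU1, ATP6V0B, ATP6V0D1 and ATP6V1G1. CACGTG, which lies within it, occurred in 10 of the 34 (29.4%), against 7.43% of all. A match describes these letters and does not show that a factor binds there.

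The windows below are shown because they carry the searched element and belong to genes chosen by the naming rule given with the processing. GAA also carries it, but its values were added outside that rule and its window is not shown. Each is written 5′ to 3′ on the strand of its gene, with 40 bases on either side of the outer matches, fewer for LAMP1 and MCOLN1 after the last match, and the matches, overlaps included, in capitals. The first is from the lysosomal membrane protein gene LAMP1 (chr13:113297006-113297268, plus strand, 6 matches), and the next from the calcium channel gene MCOLN1 (chr19:7522542-7522653, plus strand, 2 matches), the proton pump subunit gene ATP6V0B (chr1:43974862-43974966, plus strand, 2 matches) and the aspartic protease gene CTSD (chr11:1763928-1764014, minus strand, 1 match). The last, from the tetraspanin gene CD63 (chr12:55729144-55729229, minus strand), holds CACGTG without the flanking base. CD63 was added after its values were seen, because it was the member that passed the test, and its window belongs to the first of 8 listed starts.
LAMP1: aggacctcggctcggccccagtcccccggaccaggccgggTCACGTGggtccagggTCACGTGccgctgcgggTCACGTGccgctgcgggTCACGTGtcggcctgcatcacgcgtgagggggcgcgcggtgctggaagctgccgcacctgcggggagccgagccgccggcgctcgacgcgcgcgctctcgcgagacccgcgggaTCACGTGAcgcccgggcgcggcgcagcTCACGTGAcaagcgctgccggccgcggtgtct
MCOLN1: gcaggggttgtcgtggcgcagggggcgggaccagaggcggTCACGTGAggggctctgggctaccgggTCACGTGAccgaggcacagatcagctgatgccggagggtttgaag
ATP6V0B: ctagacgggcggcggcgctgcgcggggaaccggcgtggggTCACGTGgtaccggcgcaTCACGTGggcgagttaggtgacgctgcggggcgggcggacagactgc
CTSD: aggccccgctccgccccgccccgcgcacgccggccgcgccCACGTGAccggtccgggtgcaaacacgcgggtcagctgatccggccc
CD63: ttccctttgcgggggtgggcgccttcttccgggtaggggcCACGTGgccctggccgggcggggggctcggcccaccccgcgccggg

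Of the 46 genes, 1 rose in Rib_CA and none fell. The gene that rose was CD63, a tetraspanin of late endosomes, lysosomes and exosomes. The 1 of 46 stands beside 2.01% of all genes called higher and 7.13% called either way, so the share called higher was near the background. For the 0 called lower, 2 were lower at an unadjusted p under 0.05 in edgeR, and DESeq2 and limma-voom also called 0 lower, where they called 10.6 and 4.67% of all genes lower. DESeq2 called 9 of the 46 higher, against 7.23% of all genes in that fit, and limma-voom called 1, against 1.57%. The 9 were CD63, PSAP, NAGLU, ATP6V0B, HEXA, GAA, GRN, CTSD and NPC1. These are bulk libraries, in which fewer cells expressing a gene and less RNA per cell cannot be told apart.

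Most of the 46 had a higher mean in Rib_CA without passing. The fold change was positive for 37 of 46 (80.4%), against 51.9% of all genes, and the median log2 fold change was 0.37, against 0.03 over all genes. At an unadjusted p under 0.05, 11 were higher and 2 lower, where all genes gave 13.7% higher and 14.7% lower. Both Rib_CA libraries lay above both DMSO libraries for 19 genes (41.3%, against 30.4% of all genes) and below them for 4 (8.70%, against 28.4%). The summed level of the 46 was 6762 and 7521 CPM in Rib_CA, against 4958 and 5187 CPM in DMSO. The 31 genes outside the V-ATPase and the 15 V-ATPase genes had different distributions: 29 of the 31 had a positive fold change (median 0.39), against 8 of the 15 (median 0.06). That difference was not tested, since genes are not replicates.

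**Figure D1:**
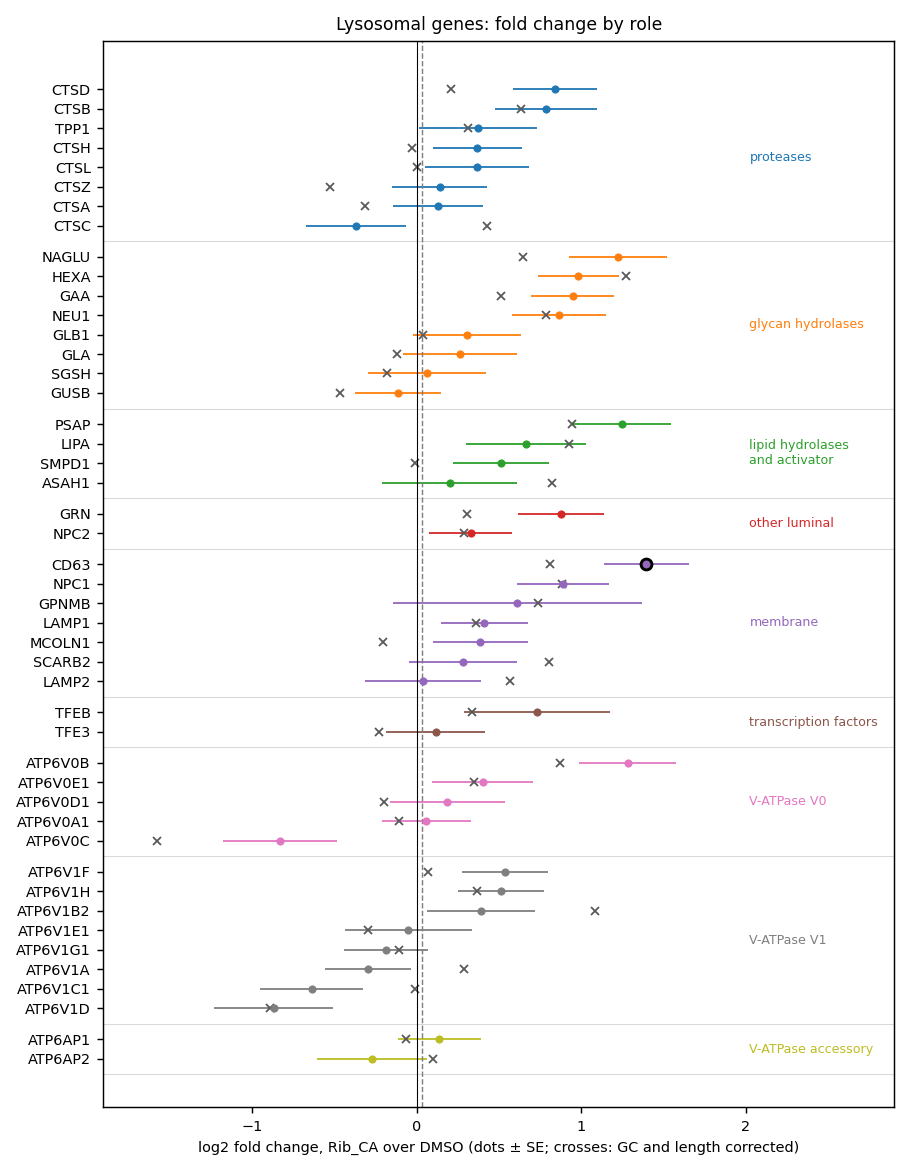
Log2 fold change of Rib_CA over DMSO for the 46 genes, grouped by role, with dots for edgeR's estimate and bars for its SE. Crosses are estimates after correction of each library for GC content and transcript length, the dashed line is the median of all genes tested (0.03) and the ringed dot is CD63, the 1 gene that passed. The genes outside the V-ATPase lie mostly to the right of 0, and the V-ATPase genes lie on both sides.

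Among the proteases no gene passed, and CTSD had the highest fold change. CTSD (GRCh38 chromosome 11, 1752752 to 1764573, minus strand) encodes cathepsin D, the main aspartic protease of lysosomes. It lay at 529 and 478 CPM in the Rib_CA libraries, against 277 and 285 CPM in the DMSO libraries, so that the groups did not overlap. The log2 fold change was 0.84 ± 0.25 SE (edgeR, adjusted p = 0.0927). CTSD shares 41.7% of its exonic bases with a read-through gene on the same strand, ENSG00000250644, which itself lay at 66.4 and 47.0 CPM in Rib_CA, against 16.7 and 19.9 CPM in DMSO. How reads in shared bases were divided is not known from the labels. Whether strand was used is not known either. The largest shares on the opposite strand were 23.7% of ATP6V1F with KCP (at most 1.39 CPM) and 17.7% of CTSA with NEURL2 (at most 0.860 CPM). Some smaller shares were with more abundant genes. ATP6V1D shares 6.33% with EIF2S1, at 155 and 192 CPM in Rib_CA, against 194 and 164 CPM in DMSO. LIPA shares 1.32% with IFIT2, at 109 and 475 CPM in Rib_CA, against 129 and 126 CPM in DMSO. What these overlaps add to the values was not tested. Annotated pseudogenes, not analysed here, exist for CTSL, GUSB, ATP6V0C, ATP6V0E1, ATP6V1E1 and ATP6V1G1, whose values are less certain for that reason.

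CTSB, the cysteine protease cathepsin B, lay at 314 and 487 CPM in Rib_CA, against 213 and 252 CPM in DMSO. The groups did not overlap, but the Rib_CA libraries lay far apart, and the log2 fold change of 0.79 ± 0.31 did not pass (adjusted p = 0.155). CTSZ, a carboxypeptidase, had the highest level per length of the proteases, and its libraries overlapped at 421 and 294 CPM in Rib_CA, against 316 and 333 CPM in DMSO. CTSC, which activates serine proteases of immune cells, was the protease with a negative fold change (-0.37 ± 0.30), at 182 and 133 CPM in Rib_CA, against 237 and 169 CPM in DMSO. CTSL, CTSH, TPP1 and CTSA had log2 fold changes of 0.37, 0.37, 0.37 and 0.13. CTSH also had separate groups, so Rib_CA lay above DMSO without overlap for 3 of the 8 (37.5%), against 30.4% of all genes. Of the 8 proteases 2 were higher at an unadjusted p under 0.05, DESeq2 called 1 higher, and limma-voom called 0. Over all genes these shares were 13.7, 7.23 and 1.57%, in that order.

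The glycan hydrolases comprised 4 genes with separate groups and 4 whose groups overlapped, and none of the 8 passed in edgeR. The 4 genes with separate groups, all higher in Rib_CA, made up 50%, against 30.4% of all genes with that order. NAGLU, which removes N-acetylglucosamine from heparan sulfate, lay at 45.5 and 33.3 CPM in Rib_CA, against 16.7 and 17.1 CPM in DMSO. Its fold change was 2.33 (log2 1.22 ± 0.29; adjusted p = 0.0563). Every Rib_CA value was above every DMSO value for NAGLU, as it was for HEXA, a subunit of beta-hexosaminidase, for GAA, which degrades glycogen, and for NEU1, which removes sialic acid. HEXA lay at 104 and 114 CPM in Rib_CA, against 54.3 and 56.2 CPM in DMSO (1.97-fold; adjusted p = 0.0626). GAA lay at 98.4 and 86.7 CPM in Rib_CA, against 46.1 and 49.9 CPM in DMSO (1.93-fold; adjusted p = 0.0709). NEU1 was 1.82-fold higher (adjusted p = 0.111).

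The other 4 glycan hydrolases were GLB1, the beta-galactosidase, GLA, the alpha-galactosidase, SGSH, a sulfatase of heparan sulfate, and GUSB, the beta-glucuronidase. GLB1, with the highest level per length of these hydrolases, lay at 127 and 126 CPM in Rib_CA, against 73.9 and 131 CPM in DMSO, so the overlap came from the spread between the DMSO libraries. GUSB lay at 85.9 and 69.6 CPM in Rib_CA, against 78.2 and 89.999 CPM in DMSO (log2 fold change -0.11 ± 0.26, and 0.09 when libraries were scaled by total counts alone). SGSH and GLA had log2 fold changes of 0.06 and 0.26. For the 0 calls among the glycan hydrolases, 4 were higher at an unadjusted p under 0.05 in edgeR, DESeq2 called 3 higher, and limma-voom called 0. The shares of all genes were again 13.7, 7.23 and 1.57%.

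Among the genes of lipid breakdown, PSAP stood highest. PSAP encodes prosaposin, the precursor of the saposins, which present sphingolipids to their hydrolases. It lay at 876 and 1222 CPM in Rib_CA, against 443 and 442 CPM in DMSO (GRCh38 chromosome 10, 71816298 to 71851375, minus strand). The groups did not overlap, and the DMSO libraries were nearly equal. The fold change was 2.37 (log2 1.25 ± 0.30), and the adjusted p of 0.0550 missed the threshold. Averaged over the 4 libraries PSAP also had the highest level per length of the 46 genes, at 365 ± 85.3 RPKM in Rib_CA and, behind CTSZ, 154 ± 0.217 RPKM in DMSO (SD, n = 2 each; counts per 1000 bases of the longest transcript and per 1000000 counts). LIPA, the acid lipase that releases cholesterol from its esters, had a log2 fold change of 0.66, and SMPD1, the acid sphingomyelinase, one of 0.51. With PSAP and SMPD1, Rib_CA lay above DMSO without overlap for 2 of the 4 genes (50%), against 30.4% of all genes. ASAH1, the acid ceramidase, lay at 19.99 and 43.9 CPM in Rib_CA, on both sides of its 30.4 and 25.2 CPM in DMSO. Of these 4, 1 was higher at an unadjusted p under 0.05, DESeq2 called 1 higher, and limma-voom called 0. The background was 13.7, 7.23 and 1.57% of all genes.

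Both other luminal genes had Rib_CA libraries above the DMSO libraries, as did 30.4% of all genes. GRN encodes progranulin, a secreted and lysosomal protein, and lay at 409.9 and 343 CPM in Rib_CA, against 198 and 213 CPM in DMSO (1.84-fold; adjusted p = 0.0888). NPC2, which binds cholesterol in the lumen and hands it to NPC1, lay at 229 and 212 CPM in Rib_CA, against 163 and 189 CPM in DMSO (1.26-fold; adjusted p = 0.436). Of these 2, 1 was higher at an unadjusted p under 0.05, DESeq2 called 1 higher, and limma-voom called 0. The background was the same 13.7, 7.23 and 1.57% of all genes.

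Of the 7 membrane proteins, CD63 rose and the other 6 had positive fold changes that did not pass. The 1 of 7 called was 14.3%, against 2.01% of all genes called higher, and 51.9% of all genes had a positive fold change. Of the 7, 2 were higher at an unadjusted p under 0.05, DESeq2 called 2 higher, and limma-voom called 1. Over all genes these shares were 13.7, 7.23 and 1.57%, in that order. CD63 (GRCh38 chromosome 12, 55725323 to 55729707, minus strand) lay at 370.2 and 379.8 CPM in Rib_CA, against 155 and 130.02 CPM in DMSO. The lowest Rib_CA library was well above the highest DMSO library, and the Rib_CA libraries lay close together. The DMSO libraries differed by 0.26 log2 units, beside a median of 0.21 over the 46 genes and 0.26 over all genes. CD63 averaged 375 ± 6.79 CPM in Rib_CA and 143 ± 17.8 CPM in DMSO (SD, n = 2 each). That is a 2.63-fold increase (log2 1.39 ± 0.26 SE; edgeR, adjusted p = 0.0331). CD63 rose in 11 of the 15 alternative settings tried. It lost its call after the correction for GC content and length (log2 fold change 0.81 ± 0.23; adjusted p = 0.117), after that correction with the replicate number as a block, and on leaving out DMSO 1 (adjusted p = 0.1996) or DMSO 2 (adjusted p = 0.281). With 1 library left out its fold change ranged from 2.41 to 2.87.

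NPC1, which exports cholesterol from the lysosome, lay at 306 and 415 CPM in Rib_CA, against 205 and 185 CPM in DMSO (1.85-fold; adjusted p = 0.1004). LAMP1, among the most abundant glycoproteins of the lysosomal membrane, lay at 408 and 357 CPM in Rib_CA, against 259 and 316 CPM in DMSO (1.33-fold; adjusted p = 0.356). The groups of NPC1, LAMP1 and MCOLN1 did not overlap, but those of LAMP2 did. With CD63, Rib_CA lay above DMSO without overlap for 4 of the 7 (57.1%), against 30.4% of all genes. LAMP2, the relative of LAMP1 that also acts in chaperone-mediated autophagy, lay at 76.4 and 146 CPM in Rib_CA, on both sides of its 113 and 104 CPM in DMSO. MCOLN1, a calcium channel whose signal activates TFEB, lay at 50.3 and 39.3 CPM in Rib_CA, against 30.4 and 38.1 CPM in DMSO (log2 fold change 0.39 ± 0.29; -0.20 after correction for GC content and length). SCARB2, the receptor that carries glucocerebrosidase to the lysosome, had a log2 fold change of 0.28. GPNMB, a glycoprotein that TFEB and MITF control in other cells, was the lowest of the 46 per length, at 0.510 and 2.07 CPM in Rib_CA, against 0.779 and 0.911 CPM in DMSO.

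**Figure D2:**
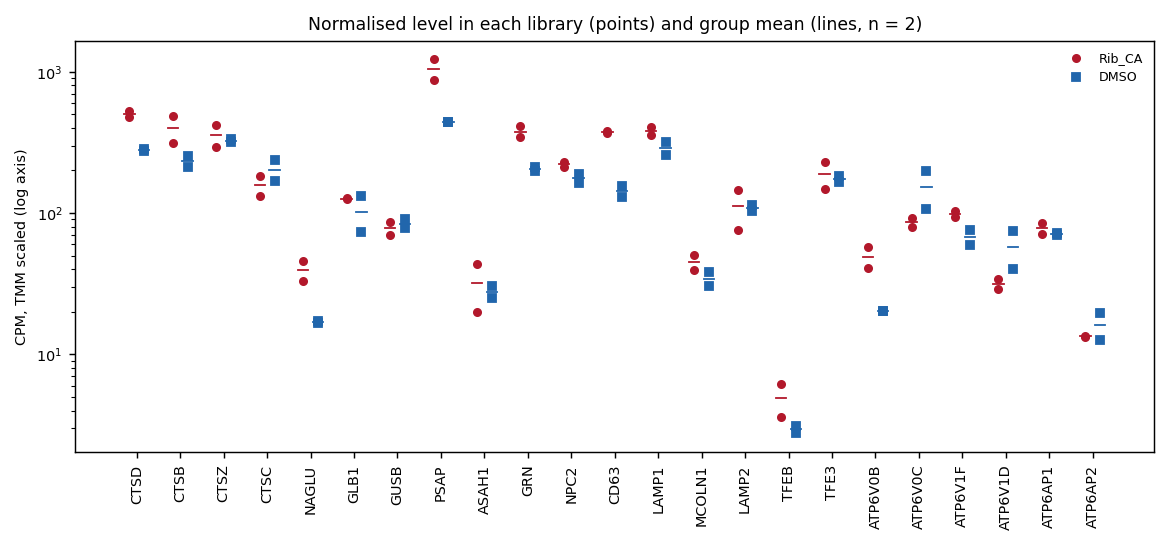
TMM-scaled CPM on a log axis for the 23 genes whose values are given by the naming rule, with Rib_CA libraries as red circles to the left of DMSO libraries as blue squares, and lines for the group means. The groups of CD63, PSAP, NAGLU, ATP6V0B, GRN and CTSD lie clearly apart, whereas those of LAMP2, TFE3 and ASAH1 overlap, with Rib_CA 1 and Rib_CA 2 on either side of the DMSO libraries.

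TFEB and TFE3 differed more from each other than between the groups. TFE3 lay at 148 and 229 CPM in Rib_CA, on both sides of its 182 and 165 CPM in DMSO (log2 fold change 0.12 ± 0.30; adjusted p = 0.841). TFEB was low, at 3.60 and 6.16 CPM in Rib_CA, against 3.11 and 2.76 CPM in DMSO (1.66-fold; adjusted p = 0.328). Per length, TFE3 stood at 55.1 RPKM in Rib_CA and 50.9 RPKM in DMSO, and TFEB at 1.88 RPKM in Rib_CA and 1.13 RPKM in DMSO. No call was made for either by edgeR, DESeq2 or limma-voom, and 0 of the 2 had an unadjusted p under 0.05. Their activity is set by movement into the nucleus, which RNA levels do not measure.

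The V-ATPase has a membrane part, V0, through which protons pass, and a cytosolic part, V1, which burns ATP. None of its 15 genes passed, and they did not share a direction: 8 fold changes were positive and 7 negative. The Rib_CA libraries lay above the DMSO libraries for 3 of the 15 genes and below them for 4 (26.7%), beside 30.4% and 28.4% of all genes. The summed level was 1034 and 1181 CPM in Rib_CA, against 1078 and 1177 CPM in DMSO, so the sums overlapped. At an unadjusted p under 0.05, 1 gene was higher and 2 lower, where all genes gave 13.7 and 14.7%. DESeq2 called 1 higher and 0 lower, against 7.23 and 10.6% of all genes. In limma-voom 0 were called, against 1.57% higher and 4.67% lower over all genes.

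Within V0, the proteolipid ring held the genes with the highest and the lowest fold change. ATP6V0B lay at 40.9 and 57.2 CPM in Rib_CA, against 20.19 and 20.16 CPM in DMSO, 2.43-fold higher, with an adjusted p of 0.0514 that missed the threshold. ATP6V0C, the main subunit of the same ring, lay at 79.7 and 92.6 CPM in Rib_CA, against 108 and 198 CPM in DMSO (log2 fold change -0.83 ± 0.35; adjusted p = 0.175). For both genes the groups were separate, in opposite directions, and for ATP6V0C the DMSO libraries differed widely from each other. Without DMSO 2 the log2 fold change of ATP6V0C was -0.32. ATP6V0C shares 57.5% of its exonic bases with the entry ENSG00000260272 on the same strand, which had at most 31 counts in a library, and the counts at the shared bases cannot be told apart. ATP6V0E1, a small V0 subunit, and ATP6V0D1, which links V0 to V1, had log2 fold changes of 0.40 and 0.19. ATP6V0A1, the large subunit that lines the proton path, had one of 0.06.

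In V1 the fold change was positive for 3 genes and negative for 5. ATP6V1F, a stalk subunit and the V1 gene with the highest fold change, lay at 103 and 93.4 CPM in Rib_CA, against 59.5 and 75.9 CPM in DMSO (log2 fold change 0.54 ± 0.26; adjusted p = 0.234). ATP6V1D, of the central rotor, lay at 34.0 and 28.9 CPM in Rib_CA, against 74.8 and 39.9 CPM in DMSO (log2 fold change -0.87 ± 0.36; adjusted p = 0.175). Its groups did not overlap, and leaving out DMSO 1 moved the log2 fold change to -0.35. ATP6V1C1, a stalk subunit that regulates the joining of V1 to V0, had 68.0 and 109.6 CPM in Rib_CA, against 149.6 and 127 CPM in DMSO (log2 fold change -0.64; adjusted p = 0.234). The catalytic subunit gene ATP6V1A (-0.29) and the regulatory H subunit gene ATP6V1H (0.51) also had separate groups. ATP6V1B2, ATP6V1E1 and ATP6V1G1 had log2 fold changes of 0.39, -0.05 and -0.18, of which those of ATP6V1E1 and ATP6V1G1 turned positive with total counts alone.

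The 2 accessory genes showed little difference. ATP6AP1 lay at 85.2 and 71.1 CPM in Rib_CA, against 71.9 and 70.2 CPM in DMSO (log2 fold change 0.14 ± 0.25). ATP6AP2, also known as the prorenin receptor, lay at 13.2 and 13.5 CPM in Rib_CA, against 12.6 and 19.6 CPM in DMSO (log2 fold change -0.27 ± 0.33). With these errors, neither result shows that the level stayed the same.

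**Figure D3:**
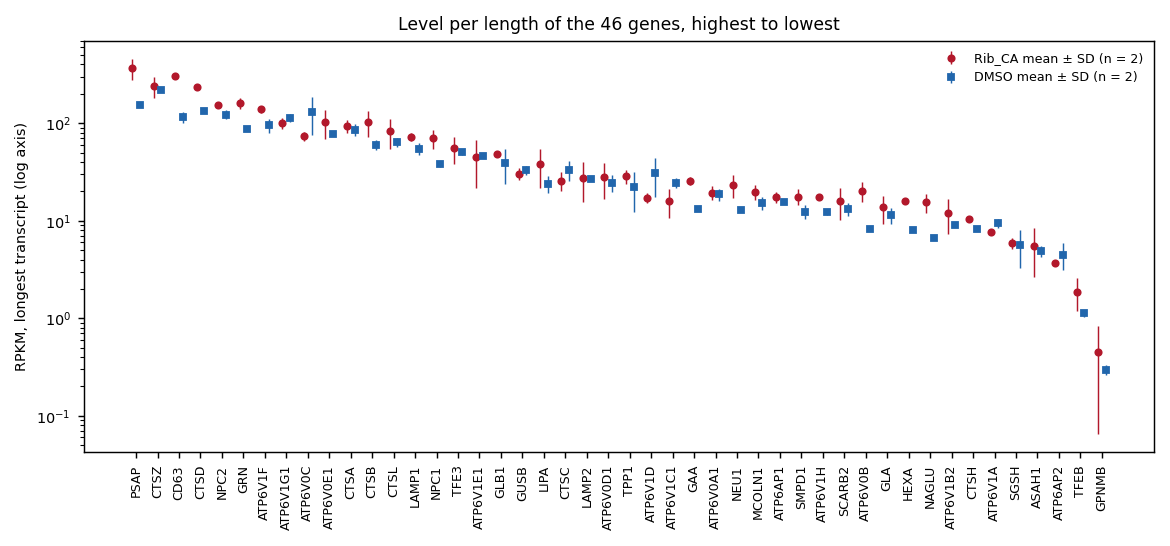
RPKM on a log axis for the 46 genes in order of their mean over the 4 libraries, with red circles for Rib_CA and blue squares for DMSO (mean ± SD, n = 2 each). PSAP, CTSZ and CD63 stand highest, and TFEB and GPNMB lowest.

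Compared per length, the order of the genes shifted between the groups at the top. In Rib_CA, PSAP stood first, followed by CD63 at 304 ± 5.51 RPKM and CTSZ at 239 ± 60.2 RPKM. In DMSO, CTSZ stood first at 217 ± 8.16 RPKM, followed by PSAP, and CD63 stood at 116 ± 14.4 RPKM. The gap between CD63 and CTSZ in Rib_CA was about the SD of CTSZ, so these neighbours were not separated beyond their spread, and the comparison of CTSZ between the groups did not pass (adjusted p = 0.793). Over the 4 libraries the V-ATPase gene highest per length was ATP6V1F, at 138 RPKM in Rib_CA and 95.2 RPKM in DMSO. In DMSO alone ATP6V0C (130.2 RPKM) and ATP6V1G1 (114 RPKM) stood above it.

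The libraries of a group differed for some of these genes more than for others. The median absolute log2 difference between Rib_CA 1 and Rib_CA 2 was 0.37 over the 46 genes and 0.42 over all genes tested. Between DMSO 1 and DMSO 2 it was 0.21 over the 46 and 0.26 over all genes. ASAH1, GPNMB and ATP6V1E1 were over 1 log2 unit lower in Rib_CA 1 than in Rib_CA 2. ATP6V1E1 lay at 39.9 and 85.2 CPM in Rib_CA, against 63.8 and 65.8 CPM in DMSO.

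**Figure D4:**
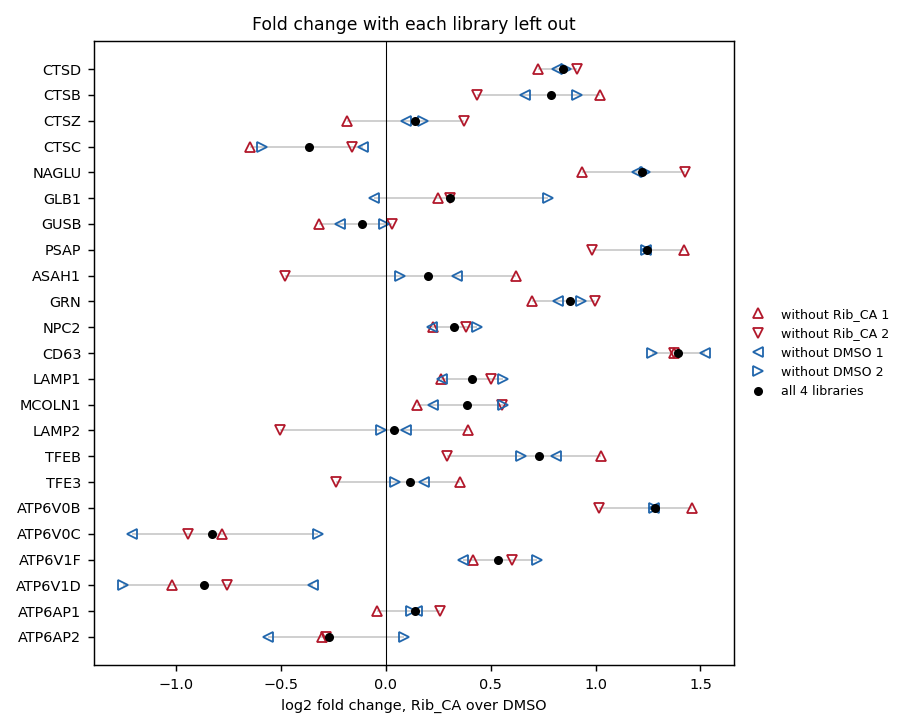
Log2 fold change of the 23 genes with all 4 libraries (black dots) and with each library left out (red triangles for a Rib_CA library left out, blue for a DMSO library). CD63 stays between 1.27 and 1.52, whereas LAMP2 and ASAH1 cross 0 when Rib_CA 2 is left out.

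The GC content of transcripts, and over all genes also their length, moved with the fold changes. Across all genes Spearman's correlation of the log2 fold change with the GC content of the longest transcript was 0.48 (13651 genes), and across the 46 genes it was 0.34. With the length of that transcript it was -0.34 across all genes and -0.05 across the 46. These are descriptions across genes that share the same 4 libraries. The 46 had a median GC content of 52.1%, against 48.5% over all genes tested. The genes outside the V-ATPase had a median of 52.8% and the V-ATPase genes one of 46.6%. After each library was corrected for GC content and length, the median log2 fold change was 0.29 for the 46 and 0.03 over all genes. It was 0.33 for the genes outside the V-ATPase and -0.01 for the V-ATPase genes. The corrected fold change was positive for 29 of the 46, against 7098 of the 13667 genes tested. By part it was positive for 22 of the 31 genes outside the V-ATPase and 7 of the 15 V-ATPase genes. Since the correction is fitted to values that include the treatment, a change that follows GC content or length is removed with it.

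**Figure D5:**
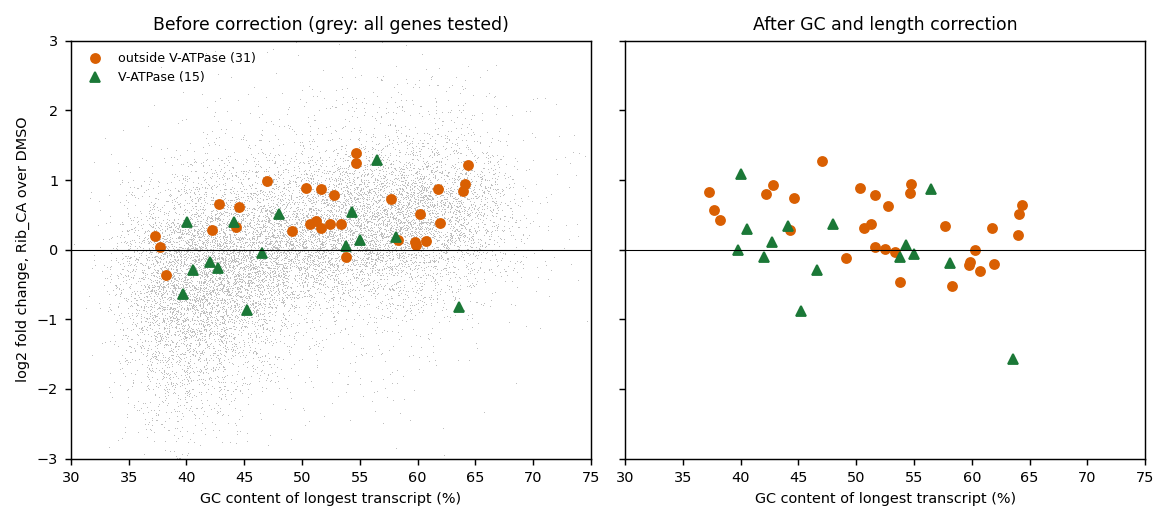
Log2 fold change of Rib_CA over DMSO against the GC content of the longest transcript, before correction (left, all genes tested in grey, those beyond 3 in size not drawn) and after correction for GC content and length (right). Orange circles are the 31 genes outside the V-ATPase and green triangles the 15 V-ATPase genes. In the 46 genes Spearman's correlation is 0.34 on the left and -0.33 on the right. Over all genes it is 0.48 before and -0.02 after the correction.

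After the correction 0 genes of the whole table passed in edgeR, with 3422 (25.0%) at an unadjusted p under 0.05, 16 of them among the 46. The log2 fold change of HEXA was then 1.27 ± 0.21 (adjusted p = 0.0805), ATP6V1B2 one of 1.09 (adjusted p = 0.0907), PSAP one of 0.94 (adjusted p = 0.133) and CTSD one of 0.21. ATP6V0C had one of -1.57 ± 0.35 (adjusted p = 0.0915). The sign turned for 14 of the 46, among them CTSC, which became 0.43, CTSZ, which became -0.52, and TFE3, which became -0.23.

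The other genes of the pathway were read from 8 lists of lysosomal and autophagy genes, drawn up with earlier results of these data known. The shares called in them are therefore descriptions, and 176 of the listed genes were tested. In Rib_CA 6 of these rose (3.41%, against 2.01% of all genes) and 5 fell (2.84%, against 5.11%), with a median log2 fold change of 0.31, against 0.03 over all genes. The same shares of all genes, 2.01% higher and 5.11% lower, are the background for edgeR's calls in each list. They were 7.23 and 10.6% for DESeq2 and 1.57 and 4.67% for limma-voom. At an unadjusted p under 0.05 in edgeR they were 13.7 and 14.7%. Among 33 further hydrolases CTSF, cathepsin F, rose, at 19.7 and 41.5 CPM in Rib_CA, against 7.61 and 8.20 CPM in DMSO (3.87-fold; adjusted p = 0.0432), and none fell at an unadjusted p under 0.05, in DESeq2 or in limma-voom. Among 23 further membrane proteins edgeR called 0, with 5 higher and 1 lower at an unadjusted p under 0.05. DESeq2 called 4 higher and 1 lower there, and limma-voom called 0. The smallest p belonged to PIP4P1, a phosphatase of the lysosomal membrane (log2 fold change 1.12; adjusted p = 0.0766), and CLCN7, the chloride-proton exchanger (0.91; adjusted p = 0.0773). Among 17 further V-ATPase genes DMXL2, which helps V1 and V0 to assemble, fell to 9.39 and 10.1 CPM in Rib_CA, against 58.1 and 37.5 CPM in DMSO (4.91-fold lower; adjusted p = 0.0285). None of those 17 rose in edgeR or limma-voom, with 1 higher at an unadjusted p under 0.05 and in DESeq2.

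In the sorting of enzymes to the lysosome 2 of 17 genes fell (11.8%, against 5.11% of all genes) and none rose. GNPTAB, the transferase that makes the mannose 6-phosphate tag, lay at 27.6 and 23.1 CPM in Rib_CA, against 69.3 and 60.4 CPM in DMSO (2.56-fold lower; adjusted p = 0.0385). AP1G1, a subunit of the adaptor that packs tagged enzymes at the Golgi, was 2.34-fold lower (adjusted p = 0.0417). In that list 6 genes were higher at an unadjusted p under 0.05, DESeq2 called 1 higher, and limma-voom called 0 higher. Among 21 genes that control TFEB, FLCN, the folliculin gene, which is itself a known TFEB target, rose to 127 and 100.4 CPM in Rib_CA, against 48.1 and 43.5 CPM in DMSO (2.48-fold; adjusted p = 0.0393). None fell there in edgeR, with 1 lower at an unadjusted p under 0.05 and 1 called lower by DESeq2 and 0 by limma-voom. That gene, named after its values were seen, was MITF, a relative of TFEB, at 14.4 and 18.9 CPM in Rib_CA, against 35.2 and 35.3 CPM in DMSO (log2 fold change -1.08; adjusted p = 0.0708).

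Of 31 autophagy genes TAX1BP1, a cargo receptor, fell to 47.3 and 55.2 CPM in Rib_CA, against 154 and 149 CPM in DMSO (2.95-fold lower; adjusted p = 0.0287). None rose in edgeR or limma-voom, with 7 higher at an unadjusted p under 0.05 and 4 called higher by DESeq2. Of 26 genes of lysosome fusion and movement PLEKHM1, an adaptor of RAB7, rose 2.44-fold (adjusted p = 0.0349) and none fell, with 1 lower at an unadjusted p under 0.05, 1 in DESeq2 and 0 in limma-voom. Of 8 genes that respond to damaged lysosomes 3 rose (37.5%, against 2.01% of all genes) and 1 fell (12.5%, against 5.11%). That list is short and was chosen with earlier results known, so its shares do not test enrichment. The galectin genes LGALS3, at 176 and 170.3 CPM in Rib_CA, against 59.9 and 57.9 CPM in DMSO, and LGALS1 rose 2.94-fold (adjusted p = 0.0286) and 2.47-fold (adjusted p = 0.0392). TRIM16, a ubiquitin ligase partner of galectins, rose 2.60-fold (adjusted p = 0.0420). PDCD6IP, which encodes the membrane repair protein ALIX, was 2.63-fold lower (adjusted p = 0.0385). All 11 calls were lost without DMSO 1 and after the GC and length correction, in which 0 genes of the whole table passed, and all but that of DMXL2 without DMSO 2. The signs were kept, and some fold changes moved little: the log2 fold change of TAX1BP1 was -1.54 without DMSO 1, -1.52 after the correction and -1.56 in the fit of all libraries. That of LGALS3 was 1.58 without DMSO 1, 1.40 after the correction and 1.56 in the fit of all libraries. That of DMXL2 was -1.95 without DMSO 1, -1.31 after the correction and -2.29 in the fit of all libraries. Total counts alone ended those of GNPTAB, AP1G1 and PDCD6IP, the replicate block those of AP1G1, LGALS1 and TRIM16, and limma-voom that of CTSF.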

How the data were processed

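The authors deposited raw counts, whole numbers without normalisation, for 20263 human Ensembl gene IDs in 4 libraries. RNA came from RNeasy columns and libraries from a Hieff NGS MaxUp mRNA kit, per the labels' protocols. GRCm38 and mm10, both mouse, are the builds in the submitters' processing notes, although the IDs are human. The aligner, the counter and the use of strand are not stated. Values from 1 to 10 were even in 67.7 to 70.7%, as when both mates of a pair are counted, so counting error is uncertain. Symbols matched 20148 IDs, and positions, lengths and GC contents came from GENCODE release 29 (GRCh38) for 20224 IDs.

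The test was edgeR 4.0.16 under R 4.3.3 (filterByExpr with minimum count 10 and total 15, TMM, robust glmQLFit and glmQLFTest, 2 residual degrees of freedom, Benjamini-Hochberg over 13667 genes, threshold 0.05). The SE is the absolute log2 fold change over the root of F. The fit moderates the variance of each gene across all genes, so an SE does not follow that gene's libraries alone. Libraries of a group differed far beyond counting error (chi-square per degree of freedom 265 in Rib_CA and 257 in DMSO). Alternatives were DESeq2 1.42.0, limma-voom (limma 3.58.1), other scalings and filters, no mitochondrially encoded genes, a replicate block, each library left out, and an offset from a mgcv 1.9.3 smooth (6 basis functions) of GC content and length. The crossed block was chosen after seeing the data. Genes and lists were chosen with earlier results of these data known. Named genes are those that passed, 7 set by name, and in each role those with the highest and lowest fold change and the highest RPKM. Of each list every called gene was named, or the 2 with the smallest p. Values of HEXA, GAA, NPC1, ATP6V1C1, ATP6V1E1 and MITF were added after they were seen. Figures were drawn with matplotlib 3.10.9.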

Additional observations from a re-analysis of the deposited data

How the results depend on the processing

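With 2 libraries a group and a wide spread, the number of calls depended on single libraries and on the scaling. Of the 46 genes, 21 kept the sign of their fold change in all 15 alternatives that gave them a value, 18 positive and 3 negative (ATP6V0C, ATP6V1C1 and ATP6V1D). TFEB and GPNMB were left out by the filter of 5 CPM in 2 libraries. The members' median log2 fold change stayed within the spread between replicates of the main value, from 0.263 to 0.562, and total counts alone moved the median of all genes to 0.23, from 0.03, beside 0.56 for the 46. Counting error is largest for TFEB and GPNMB, the members under 5 CPM in most libraries.

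Among the 46, the 1 call became 2 with DESeq2 size factors, 2 with total counts alone, 3 without mitochondrially encoded genes, 4 without a filter, 5 with the stricter filter, 6 with the crossed block, 9 with DESeq2, 0 with the GC and length correction and 0 with that correction and the block. With each library left out it ranged from 0 to 9 higher and from 0 to 1 lower. The 0 calls came without DMSO 1 or DMSO 2, the 9 without Rib_CA 1, and the 8 higher with 1 lower (ATP6V1C1) without Rib_CA 2. Over all genes, 275 higher and 699 lower became 448 higher without a filter, 418 higher with the stricter filter, 328 lower with total counts alone, 991 and 1459 with DESeq2, 724 and 1267 with the crossed block, 0 and 0 with the correction, and 11 and 5 with the correction and the block. With 1 library left out they ranged from 36 to 1234 higher and from 137 to 1634 lower. In the 8 lists, 6 higher and 5 lower became 2 lower with total counts alone, 22 and 11 with DESeq2, 17 and 10 with the crossed block, and 0 and 0 with the correction, with or without the block. With 1 library left out they ranged from 0 to 35 higher and from 0 to 15 lower. The cause of these differences was not tested. Where 1 library of a group was left, its spread was taken from the other group.

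The replicate numbers share only a number: differences between libraries 1 and 2 correlated at -0.17 between the groups. With the number as a replicate block, CD63 was the 1 call among the 46, as without it.

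Fold changes of named members that turned sign were not called before or after. With the correction they were -0.0647 for ATP6AP1, 0.103 for ATP6AP2, 0.429 for CTSC, -0.524 for CTSZ, -0.204 for MCOLN1 and -0.225 for TFE3. With correction and block they were -0.0636, 0.152, 0.354, -0.53, -0.198 and -0.30 for the same genes in that order. LAMP2 turned to -0.0335 with the replicate block, -0.0332 with the crossed block and -0.0335 with limma-voom, and GUSB to 0.0852 with total counts alone. With 1 library left out the range was -0.478 to 0.6198 for ASAH1, -0.0402 to 0.2602 for ATP6AP1, -0.5603 to 0.0864 for ATP6AP2, -0.187 to 0.373 for CTSZ, -0.0536 to 0.7744 for GLB1, -0.318 to 0.0296 for GUSB, -0.506 to 0.3926 for LAMP2 and -0.235 to 0.3553 for TFE3. In the promoters, 26.5% with TCACGTG became 29.4% with CACGTG.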
